A study of Mus musculus with 6 samples.

Results

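T-box transcription factors share a DNA-binding domain, and 7 of them that act in the embryonic heart and pharynx were described here: Tbx1, Tbx2, Tbx3, Tbx4, Tbx5, Tbx18 and Tbx20. Every probe set that the platform annotation assigns to a single one of these genes was taken, which gave 16 of the 45101 probe sets on the array, for 7 of 18193 genes. Tbx3 had 5 probe sets, Tbx20 had 3, Tbx4, Tbx5 and Tbx18 had 2 each, and Tbx1 and Tbx2 had a single one. The data came from 6 Affymetrix arrays of mouse cells sorted at embryonic day 9.0 for a yellow fluorescent protein that marks the Isl1-cre domain. The 3 mutant samples were from embryos with Isl1-cre, Rosa-YFP and Beta-catenin (loxP ex3), an allele whose recombination by Cre leaves a stable β-catenin, the nuclear effector of canonical Wnt signalling. The 3 wild-type samples were YFP+ cells sorted without stabilized β-catenin, and their alleles are not spelled out further in the labels. Because Cre was driven by Isl1, the sort aimed at cells with a history of Isl1 expression, which is wider than the heart, and its purity was not tested. The number of embryos behind each sample is not in the labels. Nothing in the labels says that the samples of a group came from separate litters, so the p-values measure the spread between these arrays.

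In the heart, Tbx5 and Tbx20 are activators of the chamber muscle programme, working with Nkx2-5 and GATA factors, while Tbx2 and Tbx3 are repressors that keep the atrioventricular canal and the conduction system from taking on chamber character. Tbx18 marks the sinus horns and the epicardium, Tbx1 maintains the progenitors of the pharyngeal mesoderm and the outflow tract, and Tbx4 is best known from the hindlimb and the allantois. Tbx2 and Tbx4 are neighbours on chromosome 11, as are Tbx3 and Tbx5 on chromosome 5, the remains of an old duplication of the family.

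No T-box gene passed the test between mutant and wild-type cells, and Tbx20 came nearest. Of the 7 genes, 3 had lower and 4 higher mean values in mutant cells, and the median difference was 0.05 on the log2 scale, against −0.03 over all genes. With limma fitted over all 18193 genes, 0 of the 7 were called at an adjusted p of 0.05, where 0.066% of all genes were called higher and 0% lower in mutant cells. At an unadjusted p under 0.05 there was 1 of the 7, Tbx20, where 4.84% of all genes passed as lower and 6.76% as higher. Tbx20 was also the single member whose brightest probe set did not overlap between groups, a pattern that 9.18% of all genes showed in the lower and 8.64% in the higher direction. A count of 1 in 7 is near these shares and says nothing about the family as a whole. In sorted cells measured in bulk, fewer cells of a type and less RNA per cell cannot be told apart. Values are log2 expression values as deposited, and a level at or below 4.85, taken from bacterial control probe sets, is called background. Levels of different probe sets cannot be set against each other on this array, so the genes are not ordered by level.

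**Figure D1:**
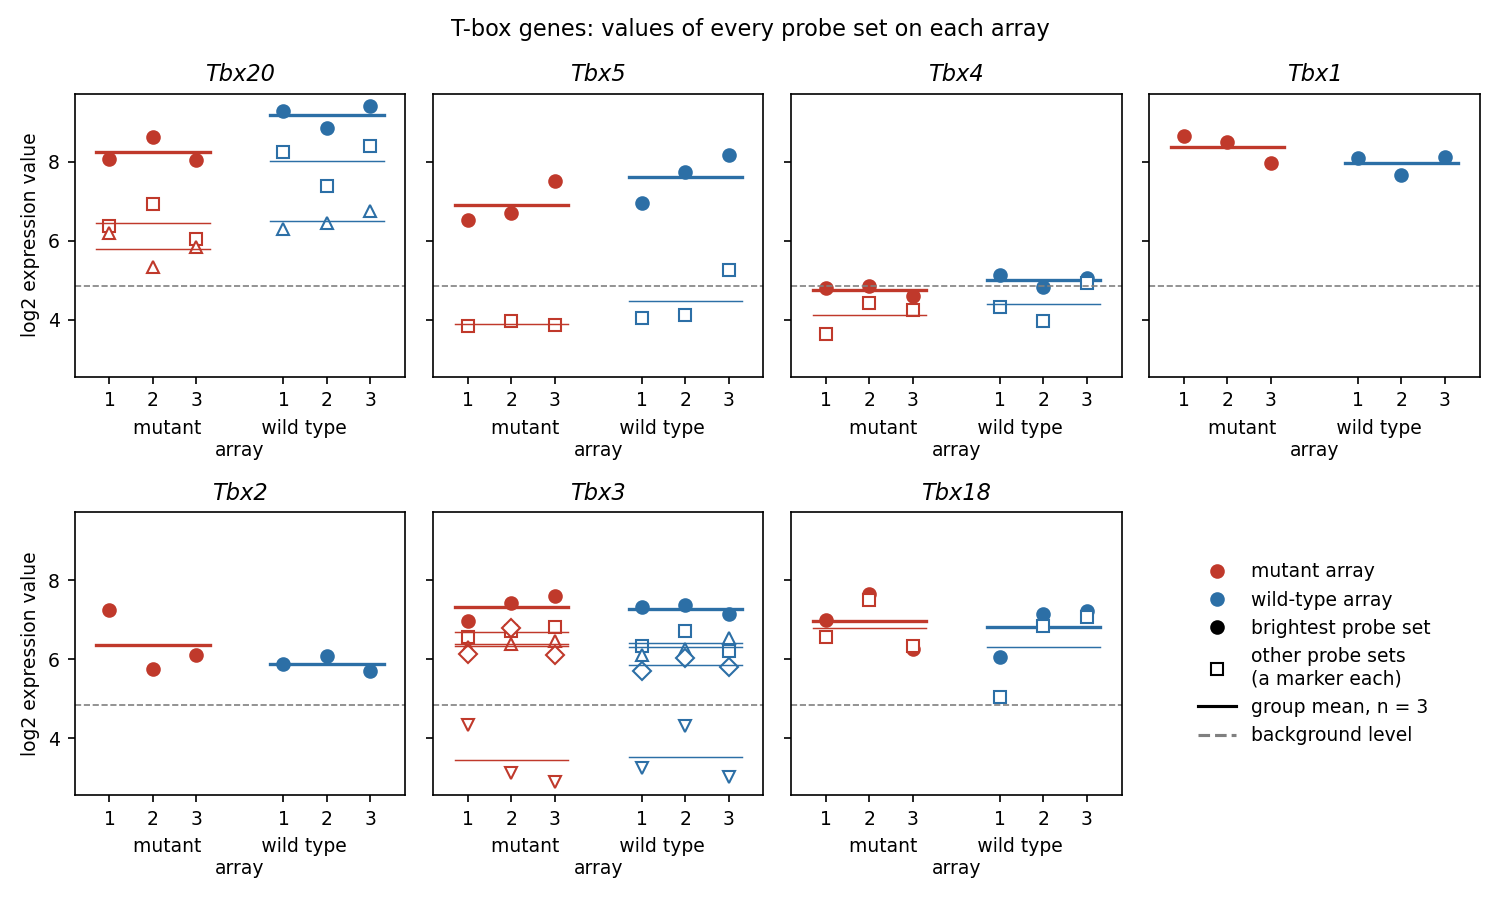
Log2 expression value (vertical axis) of each of the 16 T-box probe sets on the 3 mutant (left) and 3 wild-type (right) arrays, with horizontal bars at the group means and a dashed line at the background level of 4.85. The 3 probe sets of Tbx20 each lay lower on every mutant array than on every wild-type array, while the points of the brightest probe sets of the other genes overlapped between groups.

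Tbx20, which is needed for the growth of the chambers and restrains Tbx2 in the mouse heart, stood lower in mutant cells by every probe set. Its brightest probe set read 8.06, 8.62 and 8.04 on mutant arrays 1, 2 and 3, against 9.30, 8.85 and 9.40 on wild-type arrays 1, 2 and 3. The groups were closest between mutant array 2 and wild-type array 2. The means were 8.24 ± 0.33 in mutant and 9.18 ± 0.30 in wild-type cells (SD, n = 3 each), a level 1.92-fold lower in mutant cells. The difference of −0.94 (SE 0.22, 95% interval −1.45 to −0.44) was larger than the range within either group, 0.57 among mutant and 0.56 among wild-type arrays, but it did not pass over all genes (adjusted p = 0.220, the 231st smallest p).

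The other probe sets of Tbx20 differed in the same direction. The second, of middle brightness, read 6.38, 6.93 and 6.04 in mutant cells and 8.25, 7.39 and 8.40 in wild-type cells. It gave the largest difference of the 16 probe sets, −1.56 (SE 0.32), which is 2.95-fold lower, with an adjusted p of 0.242 over all 45037 probe sets. The third read 6.19, 5.35 and 5.86 in mutant and 6.29, 6.46 and 6.76 in wild-type cells, so its groups were separated by a narrow margin, and the difference was −0.70 (SE 0.24, adjusted p = 0.384). These 3 probe sets share the RNA of the same 6 samples and are not separate replicates. The array on which mutant cells were closest to wild type was not the same for each: it was array 2 for the brighter pair and array 1 for the dimmest. At an unadjusted p under 0.05 these 3 were the only T-box probe sets, where 4.66% of all probe sets passed as lower and 6.1% as higher in mutant cells; 0 T-box probe sets were called. Over all probe sets 8.86% had non-overlapping groups with lower values in mutant cells, and 8.01% with higher values. Of the 16 T-box probe sets there were 4 in the lower direction, the 3 of Tbx20 and a dim one of Tbx5, and 1 in the higher direction, for Tbx3.

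Leaving out any single array kept Tbx20 between −1.13 and −0.83 on the log2 scale, and it was not called in any of these fits. The cardiomyocyte markers fixed for this work stood lower in mutant cells on average, with 12 of 15 having lower and 3 higher values and a median difference of −0.29. Their average, relative to wild type, read −0.33, −0.18 and −0.17 in the mutant samples in order of replicate and −0.30, 0.34 and −0.04 in the wild-type ones, and the average level ranged from 8.54 to 8.70 in mutant and from 8.58 to 9.21 in wild-type cells. These marker means overlapped between groups through wild-type array 1, where Tbx20 was at 0.12 relative to its wild-type mean. The part of cardiomyocyte content in the Tbx20 difference was not tested.

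**Figure D2:**
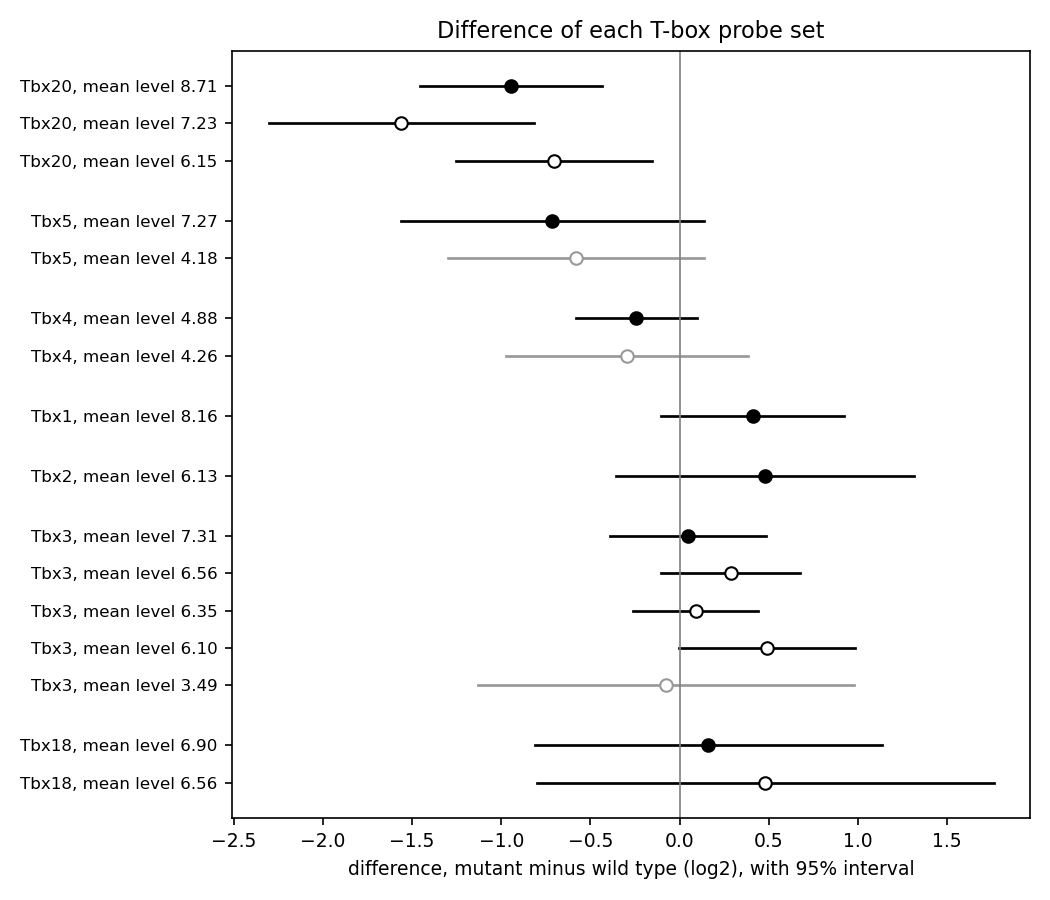
Difference between mutant and wild-type means (horizontal axis, log2, points) with its 95% interval (lines) for each T-box probe set, from the fit over all probe sets; filled points mark the brightest probe set of a gene and grey marks probe sets whose mean is at or below background. The intervals of the 3 Tbx20 probe sets lie wholly below 0, and those of the other 13 reach across 0.

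Tbx5, whose loss in mouse leaves the atria and the posterior heart tube undersized and whose human counterpart is mutated in Holt-Oram syndrome, had a lower mean in mutant cells with overlapping groups. It read 6.52, 6.69 and 7.51 on the mutant arrays, against 6.95, 7.74 and 8.18 on the wild-type arrays. Mutant array 3 lay above wild-type array 1, so the range within each group was wider than the difference of the means. The difference was −0.71 (SE 0.36, 95% interval −1.56 to 0.13, adjusted p = 0.494), and without wild-type replicate 3 it was −0.43. The other Tbx5 probe set read 3.84, 3.98 and 3.86 in mutant cells and 4.05, 4.12 and 5.25 in wild-type cells. It was above background on wild-type array 3 alone, and its separation between groups is thus one among values near background.

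Genes of the posterior second heart field and the sinus venosus, where Tbx5 is expressed beside retinoic acid synthesis, had more lower than higher values. Of 12 measured genes in this list, 8 had lower and 4 higher values, 0 were called, and the median difference was −0.22. Over all 18193 genes, 10057 had lower and 8136 higher values, and 8 in 12 is not far from that share. In this list 0 genes were without overlap in the lower direction, where 9.18% of all genes were. The list's mean relative to wild type was −0.54, −0.26 and −0.18 on the mutant arrays and −0.27, 0.11 and 0.16 on the wild-type arrays. Wild-type array 1, the lowest wild-type array for Tbx5, was also the lowest for this list. The same array was lowest for the cardiomyocyte, atrioventricular canal, epicardial and limb lists, but not for the endothelial or neural crest lists. The match is thus not particular to Tbx5 and this list. The 3 members with the smallest p were Osr1, a zinc finger factor that acts with Tbx5 in septation of the mouse atria, Shox2, a regulator of the sinoatrial node, and Foxf1, a forkhead factor of splanchnic mesoderm. Osr1 read 5.53, 6.44 and 5.82 in mutant and 6.32, 7.04 and 7.57 in wild-type cells (difference −1.05, SE 0.35, adjusted p = 0.343). Shox2 read 5.15, 4.09 and 4.94 in mutant and 5.14, 5.56 and 5.86 in wild-type cells (difference −0.79, adjusted p = 0.391). Foxf1 read 6.01, 8.004 and 7.64 in mutant and 7.94, 8.48 and 9.65 in wild-type cells (difference −1.47, SE 0.59, adjusted p = 0.406). All 3 overlapped between groups, each on a single mutant array. Foxf1 was at −0.86 without mutant replicate 1, and Shox2 was at −0.48 without mutant replicate 2.

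Tbx1, the pharyngeal member, whose human counterpart lies in the segment lost in DiGeorge syndrome, had a higher mean in mutant cells. Its single probe set read 8.65, 8.50 and 7.96 on the mutant arrays, against 8.11, 7.66 and 8.11 on the wild-type arrays. Mutant arrays 1 and 2 were above all wild-type arrays, and mutant array 3 lay among them. The means were 8.37 ± 0.36 in mutant and 7.96 ± 0.26 in wild-type cells (SD, n = 3 each), with a difference of 0.41 (SE 0.22, 95% interval −0.10 to 0.92, adjusted p = 0.506). Dropping wild-type replicate 2 gave 0.26, dropping mutant replicate 1 gave 0.27, and dropping mutant replicate 3 gave 0.61. Surface ectoderm markers had higher values in mutant cells for 10 of 10 genes, with a mean level from 8.26 to 9.21 in mutant and from 7.75 to 8.20 in wild-type cells. Endothelial and endocardial markers did so for 11 of 12, with a mean level from 7.95 to 8.32 in mutant and from 6.99 to 7.78 in wild-type cells. Neuronal markers had lower values for 9 of 10, with overlapping groups (7.42 to 8.91 in mutant and 8.31 to 9.17 in wild-type cells). Of 12 pharyngeal and gut endoderm markers, 6 had higher and 6 lower values, with overlapping groups (7.45 to 7.92 in mutant and 7.52 to 8.14 in wild-type cells). Primitive erythroid markers were above background for 9 of 9 and lower in mutant cells for 9 of 9. Their groups overlapped too (8.89 to 10.21 in mutant and 9.65 to 10.29 in wild-type cells). The surface ectoderm mean was highest on mutant array 3, where Tbx1 was the lowest of the mutant arrays, and the part of these cell types in the T-box values was not tested.

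Tbx1 and Tbx20 stood on opposite sides of 0, and the distance between their differences was computed per array. With each gene set to its wild-type mean, Tbx1 minus Tbx20 was 1.81, 1.11 and 1.14 on the mutant arrays, against 0.03, 0.03 and −0.07 on the wild-type arrays. The groups did not overlap, and the mean difference was 1.35. An exact permutation test of 3 against 3 arrays gave a two-sided p of 0.1, the smallest it can give and the one that any non-overlapping pair of groups gets. The pair was chosen with earlier results of these data known, and most of the distance is the Tbx20 difference of −0.94, whereas the interval of Tbx1 includes 0.

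The windows upstream of the annotated starts of Tbx20 and Tbx1 are printed because the differences of these genes had opposite signs, and because β-catenin acts on DNA through TCF and LEF factors. Each is the 250 bases before a RefSeq start (GRCm38.p6), 5′ to 3′ on the gene's strand; capitals mark AGGTGT, a core of the T-box binding element, or CTTTGA, a core of the TCF/LEF element, on either strand.
Tbx20, chr9:24774304-24774553, minus strand: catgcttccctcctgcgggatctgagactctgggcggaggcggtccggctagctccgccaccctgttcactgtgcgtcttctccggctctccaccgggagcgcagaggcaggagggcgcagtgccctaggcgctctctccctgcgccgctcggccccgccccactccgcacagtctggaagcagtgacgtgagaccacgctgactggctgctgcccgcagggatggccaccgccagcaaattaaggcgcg
Tbx1, downstream start, chr16:18588900-18589149, minus strand: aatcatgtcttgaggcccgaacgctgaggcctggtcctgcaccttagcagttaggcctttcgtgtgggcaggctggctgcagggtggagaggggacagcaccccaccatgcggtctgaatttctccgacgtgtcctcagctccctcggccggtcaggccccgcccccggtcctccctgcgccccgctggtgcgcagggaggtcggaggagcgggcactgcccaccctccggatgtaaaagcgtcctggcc
Tbx1, upstream start, chr16:18590672-18590921, minus strand: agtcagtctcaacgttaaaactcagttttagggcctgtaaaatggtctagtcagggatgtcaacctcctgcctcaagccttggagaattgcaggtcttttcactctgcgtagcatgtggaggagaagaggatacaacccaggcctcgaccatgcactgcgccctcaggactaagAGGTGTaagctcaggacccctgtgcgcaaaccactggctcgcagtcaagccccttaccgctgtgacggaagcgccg
The only match was an AGGTGT, 76 bases before the upstream Tbx1 start. CTTTGA, or its reverse complement, was in none of the 5 windows found for the members, these 3 and 1 each of Tbx4 and Tbx18; over all 32851 RefSeq windows of this length, 13.8% held it. AGGTGT was held by 11.8% of the windows. The 2 motifs do not overlap in sequence. A match is a description of letters, and none says only that these letters are not in this window. The Tbx20 window was 68.8% G or C, and the Tbx1 windows 67.2% and 54.4%, against a median of 52.4% over all windows.

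Genes known to lie downstream of Tbx1 in the pharynx were higher in some cases and lower in others, and none passed the test. Of 17 measured, 11 had higher and 6 lower values, 0 were called, and the median was 0.19. Their mean relative to wild type was 0.02, 0.15 and 0.05 on the mutant arrays and −0.02, −0.07 and 0.10 on the wild-type arrays, which overlapped. The homeobox gene Gbx2 read 7.05, 7.04 and 6.82 in mutant and 6.58, 6.78 and 6.44 in wild-type cells, a difference of 0.37 with non-overlapping groups (adjusted p = 0.391). Smarcd3, a cardiac subunit of the SWI/SNF chromatin remodeller, stood at −0.49 (adjusted p = 0.432). The LIM homeobox gene Lhx2, expressed in the head muscle progenitors, stood at −0.42 with non-overlapping groups (adjusted p = 0.439), and at −0.26 without mutant replicate 2. In this list 1 gene was without overlap in the higher and 2 in the lower direction, where 8.64% and 9.18% of all genes were.

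**Figure D3:**
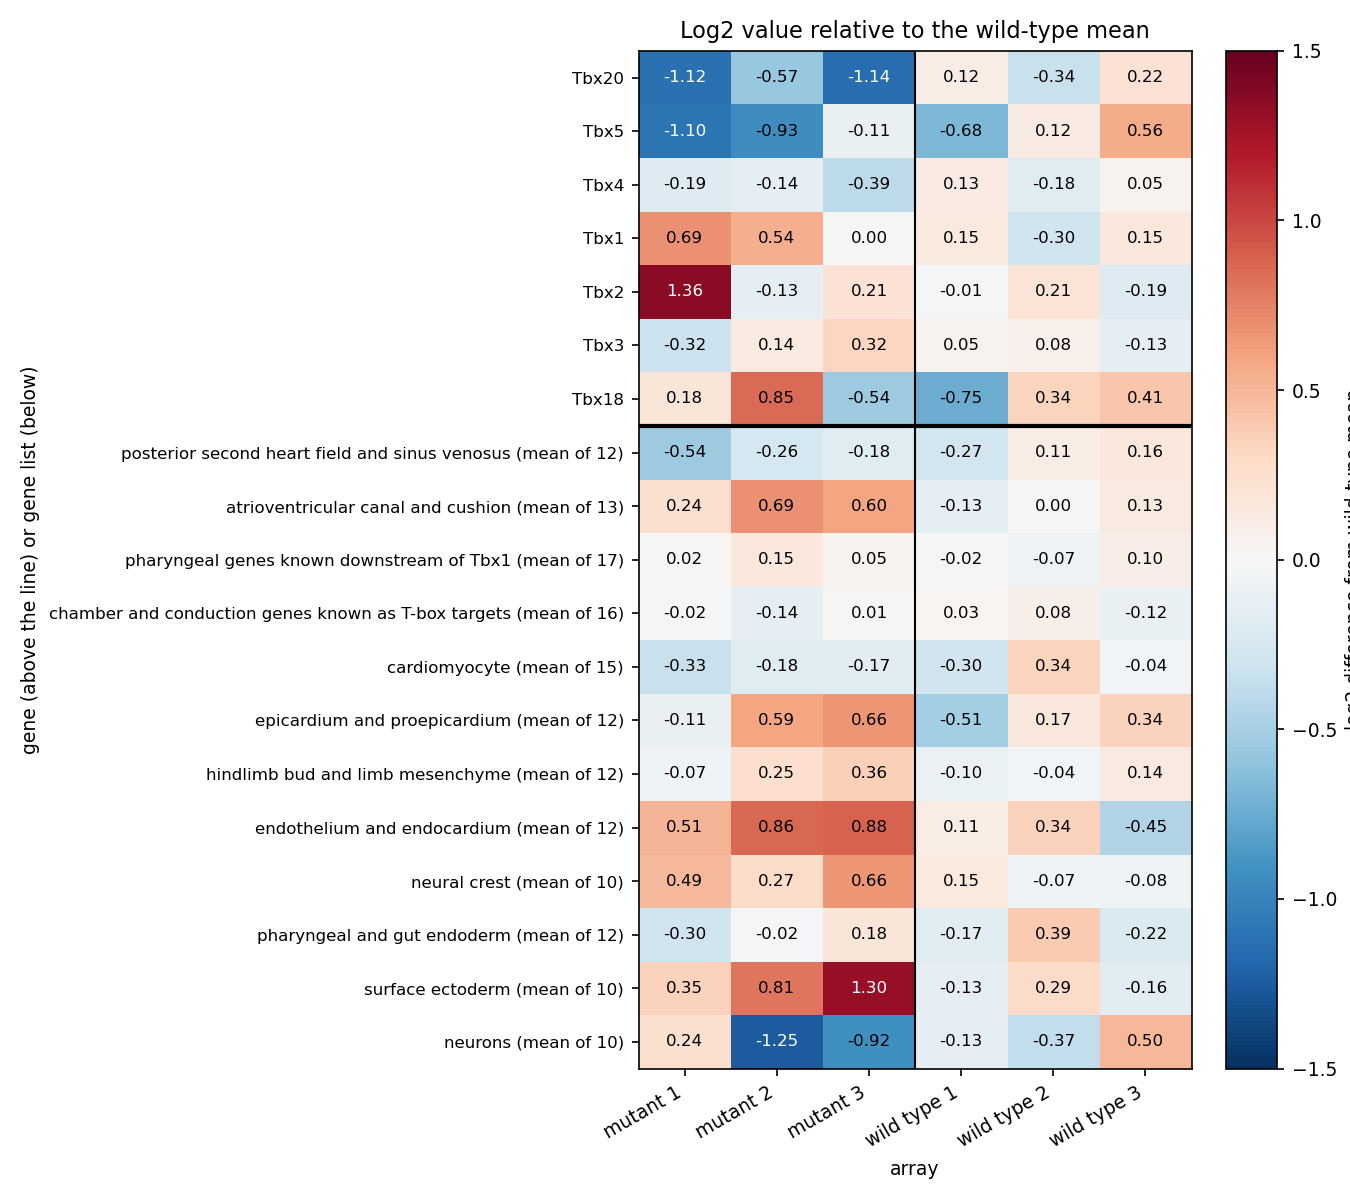
Log2 value of each T-box gene (brightest probe set, top) and mean of each gene list (bottom) relative to the wild-type mean, with mutant arrays in the left and wild-type arrays in the right columns and colour running from −1.5 (blue) to 1.5 (red). Tbx20 is at −1.12, −0.57 and −1.14 on the mutant arrays, Tbx2 reaches 1.36 on mutant array 1 alone, and Tbx18 varies within both groups.

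Among the repressors, Tbx2 had a higher mean in mutant cells that rested on a single array. It read 7.24, 5.76 and 6.10 on the mutant arrays, against 5.88, 6.10 and 5.70 on the wild-type arrays. Mutant array 1 stood apart from the other 5, which lay close together. The difference was 0.48 (SE 0.36, 95% interval −0.35 to 1.31, adjusted p = 0.621), and it was 0.04 without mutant replicate 1. Without mutant replicate 2 it was 0.78. Mutant array 1 was the mutant array with the lowest mean of the atrioventricular canal list, and a link between Tbx2 and that list was not tested. It was also the lowest mutant array for the posterior second heart field, cardiomyocyte, epicardial, endothelial and surface ectoderm lists, but not for the neural crest or neuronal lists.

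Tbx3, the repressor of the conduction system, whose human counterpart is mutated in ulnar-mammary syndrome, had nearly the same mean in both groups. Its brightest probe set read 6.97, 7.42 and 7.61 in mutant cells and 7.34, 7.36 and 7.15 in wild-type cells. The mutant arrays lay on both sides of the wild-type ones. The difference was 0.05 (SE 0.18, adjusted p = 0.934), with a 95% interval of −0.38 to 0.48 that reaches to both sides of 0. The other 3 probe sets above background gave 0.29, 0.09 and 0.49. The last of these, a probe set of a kind that may also bind related sequences, read 6.13, 6.79 and 6.11 in mutant and 5.71, 6.04 and 5.80 in wild-type cells, without overlap (adjusted p = 0.467). The remaining Tbx3 probe set lay below background on all 6 arrays. All 4 detected probe sets thus had higher means in mutant cells, each with an interval that includes 0. The brightest turned to −0.09 without mutant replicate 3 and to −0.02 without wild-type replicate 3, and to 0.23 without mutant replicate 1.

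Genes of the atrioventricular canal and its cushions, the region that Tbx2 and Tbx3 mark, mostly had higher values in mutant cells. Of 13 measured, 12 had higher and 1 a lower value, 4 did not overlap between groups in the higher direction, where 8.64% of all genes did so, 0 were called, and the median was 0.48. The mean of the list relative to wild type was 0.24, 0.69 and 0.60 on the mutant arrays and −0.13, 0.00 and 0.13 on the wild-type arrays, without overlap. Msx2, a homeobox factor that responds to BMP and Wnt signals, read 8.30, 8.53 and 8.41 in mutant and 7.39, 7.65 and 7.69 in wild-type cells (difference 0.83, SE 0.14, adjusted p = 0.133), and the mean of its probe sets gave 0.50. Bmp2, the myocardial signal that induces Tbx2 and the cushions in the mouse, read 5.87, 7.04 and 7.24 in mutant and 5.26, 5.46 and 5.40 in wild-type cells (difference 1.35, SE 0.33, adjusted p = 0.232). Among mutant arrays, Bmp2 was lowest on array 1, where Tbx2 was highest, and a link between these genes was not tested. Without mutant replicate 1, Bmp2 passed over all genes (1.77, adjusted p = 0.0139), in a fit that called 81 genes higher and 11 lower, and without each other array the adjusted p lay between 0.384 and 0.480. Snai2, a zinc finger factor of migrating mesenchyme and neural crest, read 9.90, 11.08 and 10.35 in mutant and 9.14, 9.17 and 9.61 in wild-type cells (difference 1.14, adjusted p = 0.241). Several genes of this list are shared with neural crest and mesenchyme. The neural crest list, of which 8 of 10 had higher values, was at 0.49, 0.27 and 0.66 on the mutant arrays and 0.15, −0.07 and −0.08 on the wild-type arrays, and its mean level ranged from 8.78 to 9.17 in mutant and from 8.42 to 8.65 in wild-type cells. The endothelial and endocardial list was at 0.51, 0.86 and 0.88 on the mutant arrays and 0.11, 0.34 and −0.45 on the wild-type arrays, with 8 of 12 genes not overlapping in the higher direction. The part of these cell types in the values of the canal list was not tested.

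Tbx18, of the sinus horns and the epicardium, varied more between arrays of one group than between the groups. Its brighter probe set read 6.997, 7.66 and 6.27 on the mutant arrays, against 6.07, 7.16 and 7.23 on the wild-type arrays. The dimmer one read 6.55, 7.50 and 6.35 in mutant cells and 5.04, 6.84 and 7.08 in wild-type cells. Both placed mutant array 2 highest and wild-type array 1 lowest, so that this spread was seen by separate probes in the same samples. The differences were 0.16 (SE 0.42, 95% interval −0.81 to 1.14, adjusted p = 0.901) and 0.48 (SE 0.55, adjusted p = 0.771). Dropping wild-type replicate 1 turned the brighter probe set to −0.21, dropping mutant replicate 2 turned it to −0.18, and no direction is given for Tbx18.

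Epicardial and proepicardial markers were also uneven. All 12 were measured, 7 with higher and 5 with lower values, and their mean relative to wild type was −0.11, 0.59 and 0.66 on the mutant arrays and −0.51, 0.17 and 0.34 on the wild-type arrays. The list's mean level ranged from 6.53 to 7.30 in mutant and from 6.12 to 6.98 in wild-type cells. Wild-type array 1 was lowest for the list as for Tbx18, and as for several other lists. Mutant array 3 was highest for the list mean and the lowest mutant array for Tbx18, but single markers differed in this. Wt1 (6.47, 7.90 and 7.57 on the mutant arrays) and Upk3b (7.61, 8.56 and 8.39) were highest on mutant array 2, as Tbx18 was. Krt8 (10.27, 10.48 and 11.30) and Aldh1a2 (6.22, 8.30 and 9.05) were highest on mutant array 3. Krt8 and Krt19 are also in the surface ectoderm list. The part of epicardial cells in the Tbx18 values was not tested.

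Tbx4, which is known for the outgrowth of the hindlimb and the vessels of the allantois, lay at the edge of detection. Its brighter probe set read 4.81, 4.86 and 4.61 in mutant cells and 5.13, 4.82 and 5.06 in wild-type cells, above background on 3 of the 6 arrays. The other was above background on 1 array. The difference of −0.24 (SE 0.14, 95% interval −0.57 to 0.08, adjusted p = 0.537) is one between values near background and no measured loss. Of 12 limb markers, 4 were at or below background, 10 had higher and 2 lower values, and 0 were called, with a list mean of −0.07, 0.25 and 0.36 on the mutant arrays and −0.10, −0.04 and 0.14 on the wild-type arrays.

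Most other T-box genes measured were not detected above background. Of these 8, 6 had a mean at or below background, 4 had higher and 4 lower values, and 0 were called. Mga, a large protein with a T-box domain that also dimerises with Max, read 10.21, 10.53 and 10.46 in mutant and 10.09, 10.11 and 9.95 in wild-type cells. This was a difference of 0.35 (SE 0.14, adjusted p = 0.394) without overlap, but the most variable Mga probe set stood at −0.75 and the mean of its probe sets at 0.01. Tbx6, of the paraxial mesoderm, had a mean over the 6 arrays of 4.71, below background, and stood at −0.31 (−0.18 without mutant replicate 1 or without wild-type replicate 3). Tbx21, of T lymphocytes, was below background in both groups and stood at −0.35, but at −0.0035 without mutant replicate 1 and −0.70 without mutant replicate 3.

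Partners and upstream regulators of the cardiac T-box factors were measured for all 20 genes listed. Of these, 13 had lower and 7 higher values, 5 were without overlap in the lower and 2 in the higher direction, where 9.18% and 8.64% of all genes were, 0 were called, and the median was −0.11. Nkx2-5, 1 of these 5, had a mean below background. Shh, the endodermal signal upstream of Tbx1 in the mouse pharynx, read 7.70, 7.33 and 6.98 in mutant and 8.73, 8.66 and 8.39 in wild-type cells. Its groups did not overlap, and the difference was −1.26 (SE 0.20, adjusted p = 0.131). Without mutant replicate 1 it was −1.44 and passed over all genes (adjusted p = 0.0421), without each other array the adjusted p lay between 0.222 and 0.345, and with the mean of its probe sets the difference was −0.71. Myocd, the coactivator of serum response factor, read 6.18, 6.71 and 6.49 in mutant and 8.28, 7.79 and 7.51 in wild-type cells (difference −1.40, SE 0.23, adjusted p = 0.131), and the mean of its probe sets gave −0.79. Bmp2, given above, was the third by p. Nkx2-5, a cardiac partner of Tbx5 and Tbx20 and defining marker of the heart, had means of 4.36 in mutant and 4.82 in wild-type cells. Both means were below background, but wild-type arrays 1 and 2 read 4.89 and 4.95, above it. Whether Nkx2-5 RNA was scarce or its probe set responds weakly cannot be told from these values. Isl1, whose Cre defines the sorted lineage, had means of 8.27 in mutant and 9.46 in wild-type cells without overlap (difference −1.18, adjusted p = 0.269).

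Chamber and conduction genes known as targets of these factors had values in both directions. Of 16 measured, 9 had higher and 7 lower values, 0 were called, and the median was 0.11, with list means of −0.02, −0.14 and 0.01 on the mutant arrays and 0.03, 0.08 and −0.12 on the wild-type arrays. Cardiac troponin T, Tnnt2, read 9.94, 10.21 and 10.28 in mutant and 10.85, 11.12 and 10.74 in wild-type cells (difference −0.76, SE 0.16, adjusted p = 0.187). Gja5, a connexin activated by Tbx5 in the mouse, read 5.47, 5.44 and 5.29 in mutant and 6.06, 5.90 and 5.85 in wild-type cells, a difference of −0.53 (SE 0.13, adjusted p = 0.228). Nppa, atrial natriuretic peptide, which Tbx5 activates and Tbx2 and Tbx3 repress in the mouse, had higher values, at 8.04, 7.39 and 7.71 in mutant and 5.89, 7.02 and 6.76 in wild-type cells (difference 1.16, SE 0.31, adjusted p = 0.244). The groups of these 3 genes, which had the smallest p of the list, did not overlap, and none passed over all genes. In the whole list of 16, 3 genes were without overlap in the higher and 4 in the lower direction, where 8.64% and 9.18% of all genes were.

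The genes with the profile most like that of each member were found by the root-mean-square difference between profiles over the 6 arrays, each centred on its mean, among 14126 genes above background. For Tbx20 they were Stk32a, a protein kinase gene, at 0.0786, Sync, an intermediate filament protein of muscle, at 0.194, and Asic1, an ion channel, at 0.203. The brightest Tbx20 probe set was thus nearer to Stk32a than to the other Tbx20 probe sets, from which it differed by 0.357 and 0.476. For Tbx5 they were Serpinf2 at 0.132, Il1rap at 0.217 and Hoxa4, a retinoic acid responsive Hox gene, at 0.220. For Tbx1 they were Prrx2, a mesenchymal homeobox gene, at 0.0941, Brat1 at 0.107 and 2610027K06Rik at 0.107. Lrrk1 (0.158), Fam241b (0.209) and Rgs4 (0.214) came nearest to Tbx2, and Twist2 (0.197), a mesenchymal factor, Ccnjl (0.222) and Rgs17 (0.224) to Tbx18. Tbx3 and Tbx4 varied too little over the arrays for this comparison. With 6 arrays and this many genes, close profiles are found for any gene. No member was among the nearest 3 of another: Tbx20 lay at 0.392 from Tbx4, 0.585 from Tbx5 and 0.594 from Tbx3, and Tbx2 was farthest from it at 0.967.

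**Figure D4:**
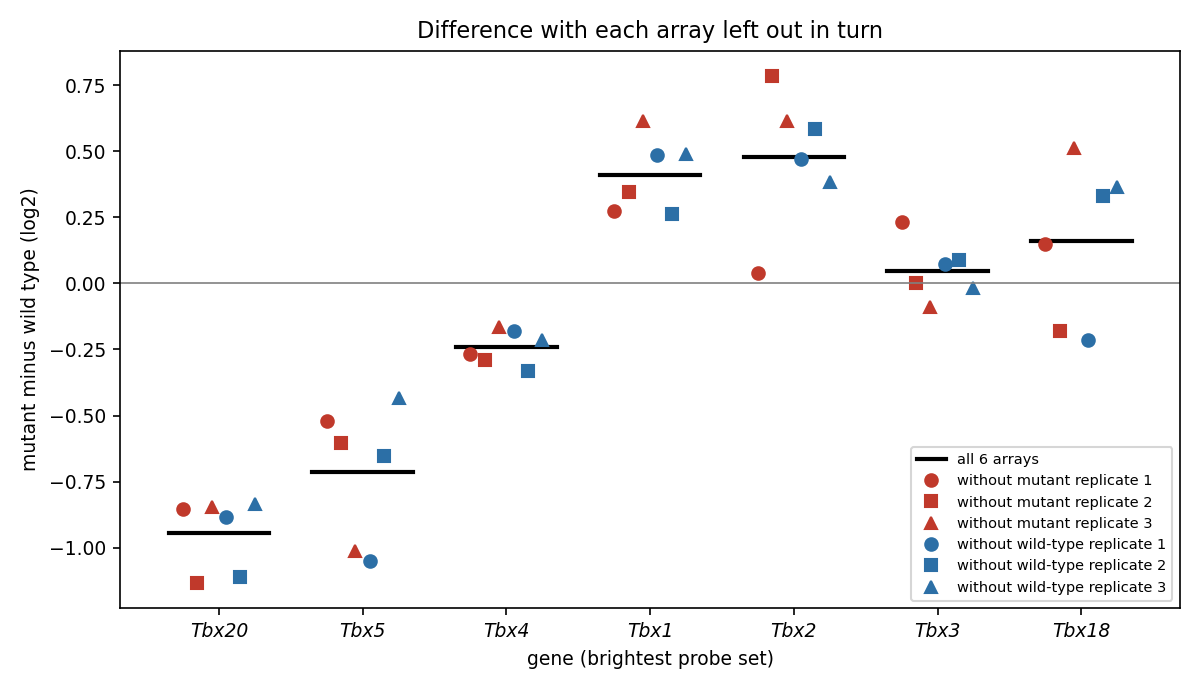
Difference between mutant and wild-type means (vertical axis, log2) of each T-box gene's brightest probe set with all 6 arrays (black bar) and with each mutant (red) or wild-type (blue) array left out. Tbx20, Tbx5 and Tbx4 stay below 0 and Tbx1 and Tbx2 above it, Tbx2 at 0.04 without mutant replicate 1, and Tbx3 and Tbx18 lie on both sides.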

How the data were processed

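Total RNA of the 6 samples was extracted with Trizol, amplified with the WT-Ovation Pico kit, labelled with biotin and hybridised, per the labels' protocols. The authors deposited log2 values, 1 per probe set and array; the base was read from the values, and how the authors corrected, summarised and normalized them is not stated in the labels or files used here. Array medians lay between 6.47 and 6.50, so the arrays appear aligned already and were not rescaled, and a change shared by most genes would then not be seen. The number of arrays limits precision.

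Probe sets were named by GEO's platform annotation, updated through RefSeq gene identifiers (34741 of 34945 matched), and the brightest stood for a gene. Groups were compared by limma 3.58.1 (R 4.3.3; two-sided, no covariates), with p adjusted by Benjamini-Hochberg across the gene table and separately over 45037 non-control probe sets. Background was the 95th percentile of the means of 27 Bacillus control probe sets. In simulated data on 18193 genes, limma found 98.45% of 200 genes changed by 2 (log2), beside a mean of 12.4 false calls. That change was larger than any T-box difference, of which the largest was −1.56. Smaller changes were not simulated, so the share found at the sizes seen here is not known. The simulated noise was normal and independent between genes, so the share found on real arrays may also differ. Members and lists were chosen with earlier results of these data known. The text names the 3 genes of each context list with the smallest p, the 3 nearest profiles of members with an SD of at least 0.3, and Isl1 and Nkx2-5 as cell type checks. Listed genes with no such probe set were not used here. Upstream windows (RefSeq, GRCm38.p6) matched 4 of the 7 members. Alternatives were the replicate block, quantile normalization, centring on medians, leaving out the dimmest 40% of genes, other probe sets for a gene, a trended robust prior, array weights and leaving out each array.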

Additional observations from a re-analysis of the deposited data

How the results depend on the processing

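No T-box gene and no T-box probe set was called under any of the alternatives run (14 for genes, 11 for probe sets). The distance between the Tbx1 and Tbx20 differences ran from 1.13 to 1.97. The direction held in all alternatives run for Tbx20, Tbx5, Tbx4, Tbx1 and Tbx2; the adjusted p of Tbx20 ran from 0.132 with the mean of probe sets to 0.471 without mutant replicate 3. Leaving out the dimmest 40% of genes removed Tbx2 and Tbx4 and gave no value for them. Tbx3 stood at −0.0749 by its most variable probe set, which was below background on all 6 arrays, and between −0.0893 and 0.23 with arrays left out, and Tbx18 at −0.0315 with array weights and between −0.21 and 0.51 with arrays left out. Mga stood at −0.75 by its most variable probe set. Leave-one-out ranges were −1.05 to −0.43 for Tbx5, 0.26 to 0.61 for Tbx1 and 0.04 to 0.78 for Tbx2. Whether shared replicate numbers pair the samples could not be settled. Deviations of same-numbered samples correlated at 0.108, −0.0751 and −0.0161, and not every sample correlated best with its own number. With 3 arrays per group, such correlations cannot exclude a pairing. With the replicate block Tbx20 stayed at −0.94 (limma adjusted p = 0.303, against 0.220 without it) and Tbx5 at −0.71 (adjusted p = 0.283, against 0.494). The Tbx1 and Tbx20 distance of 1.35 then had an exact p of 0.25, the smallest 3 pairs allow. Over all genes, 12 higher calls became 0 with the replicate block, 6 with arrays centred on their medians, 1 with either other choice of probe set, 10 with quantile normalization, 11 without the dimmest genes, 13 with the trended robust prior, 16 with array weights, and 0 to 81 with an array left out, when 0 to 11 genes were called lower. Tbx4 and the dimmer Tbx5 probe set lay near background, where no change could be measured.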
